A study of Mus musculus with 6 samples.

Results

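ID proteins and E proteins form an opposed family of helix-loop-helix factors, and the genes of this family were read in SLAM-LSK cells, a bone marrow fraction sorted to hold mostly haematopoietic stem cells. The members were chosen by gene symbol, as Id1 to Id4 for the ID proteins and Tcf3, Tcf4 and Tcf12 for the E proteins. Of these 7 genes, 5 were analysed here, Id1, Id2, Tcf3, Tcf4 and Tcf12, among 18465 genes in all. Id3 and Id4 were not analysed here, so every sum of ID genes below is of Id1 and Id2. RNA-seq was made from 3 libraries of mice heterozygous for the R751W allele of Mecom, the group MecomWT:R751W, and from 3 libraries of wild-type (WT) mice, all on C57BL/6. The mutant group carries the altered allele beside a normal copy of Mecom, and no other allele or treatment is named for either group. The labels call the libraries biological replicates without stating that each came from a separate animal, so any p-value here speaks of the spread among these libraries, which may be technical. Age and sex of the animals were not stated.

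E proteins are transcription factors that bind DNA as dimers at the E-box, a short motif with the letters CANNTG. ID proteins have the same dimerisation domain but lack the basic region that touches DNA, so an E protein held by an ID protein cannot bind its sites. Haematopoietic stem cells use E proteins both as dimers of their own and as partners of the tissue-restricted factors TAL1 and LYL1, and the balance of ID to E proteins is known to bear on lymphoid priming and on stem cell quiescence. MECOM, a zinc finger factor of stem cells, is the gene altered here.

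The upstream sequence of Id2 is shown because it places the letters that E proteins read beside an ID gene. It covers the 250 bases before the transcript start on the minus strand, at chr12:25096093-25096342 in GRCm38.p6 (RefSeq), written 5′ to 3′ with the E-box in capitals.
Id2: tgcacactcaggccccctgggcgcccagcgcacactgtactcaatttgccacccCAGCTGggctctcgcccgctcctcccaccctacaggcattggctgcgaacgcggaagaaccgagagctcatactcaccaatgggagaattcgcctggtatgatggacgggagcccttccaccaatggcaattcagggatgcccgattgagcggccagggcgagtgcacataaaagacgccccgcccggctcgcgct
The window holds 1 match to CANNTG, a palindromic CAGCTG that starts 196 bases before the transcript start. It also holds 1 match to GGCGCC, the GC box that SMAD1 and SMAD5 are known to bind in ID promoters, and no match to GCGNGGGCG, the EGR motif, or to TGACGTCA, the cyclic AMP response element. Shorter windows of 26 bases show the E-boxes upstream of transcript starts of the E protein genes, all on the minus strand. They lie at chr10:80433674-80433699 for Tcf3 and at chr9:72112044-72112069 and chr9:72111335-72111360 for 2 of the 3 starts of Tcf12. The Tcf3 window and the second Tcf12 window lie inside the annotated spans of these genes, and the first Tcf12 window lies outside.
Tcf3: tgggcgtggtCACTTGggggcgtggc
Tcf12, first start: agatgctgccCAGCTGcgtccccgtc
Tcf12, second start: cagggcggccCAAGTGggaggtggag
Searched on both strands, CANNTG is common, with a match in 66.2% of the 32851 upstream windows of this length. GGCGCC had a match in 9.59% of them, GCGNGGGCG in 4.70% and TGACGTCA in 1.55%. The matches describe the letters only, and no upstream window of Id1 or Tcf4 was used here.

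The libraries held 10427533 to 12378149 reads each, as implied by the deposited TPM values (TPM is a level per base of gene, brought to 1 common total in each library). Protein-coding genes took 25.9% to 30.1% of TPM. All 15 genes of a stem cell list were read, with a summed level of 591 to 738 TPM in MecomWT:R751W libraries and 669 to 763 TPM in WT libraries. Of the genes that mark other cells, 5 of 14 T and NK cell genes, 1 of 10 B and plasma cell genes, 1 of 9 mast cell genes, 5 of 10 endothelial genes, 3 of 10 stromal genes, 6 of 14 neutrophil and monocyte genes, 7 of 10 megakaryocyte genes and 11 of 14 erythroid genes were analysed here. Mecom itself stood at 50.9, 39.9 and 44.0 TPM in MecomWT:R751W replicates 1, 2 and 3, against 42.9, 34.9 and 36.9 TPM in WT replicates 1, 2 and 3, with overlapping groups and a log2 fold change of 0.23 (SE 0.14, adjusted p = 0.958 by limma), or 0.14 without MecomWT:R751W replicate 1. The level of a gene with an altered codon does not check the genotype labels. In bulk RNA, fewer cells of a type and less RNA per cell cannot be told apart.

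Tcf3 and Tcf12 were expressed well above the ID genes in every library of either genotype, Tcf4 less so, and none of the 5 members differed between the genotypes beyond the spread of their replicates. Tcf3 stood highest, then Tcf12, then Tcf4, then Id1 and Id2. The test was limma on log2(TPM + 1) over the 16655 genes whose mean reached 1 TPM, with Benjamini-Hochberg adjustment over all of them and a threshold of 0.05, and all 5 members passed that filter. It called 0.0% of genes and 0 of 5 members, while 995 genes had an unadjusted p under 0.05. With limma-voom, which called 0.3% of genes, 0 of 5 members were called as well. Among the members the smallest unadjusted p was 0.337, that of Id1, and the adjusted p was 1.0 for each. The groups overlapped for all 5 members, where 9.19% of all genes tested had MecomWT:R751W values wholly above or wholly below those of WT.

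**Figure D1:**
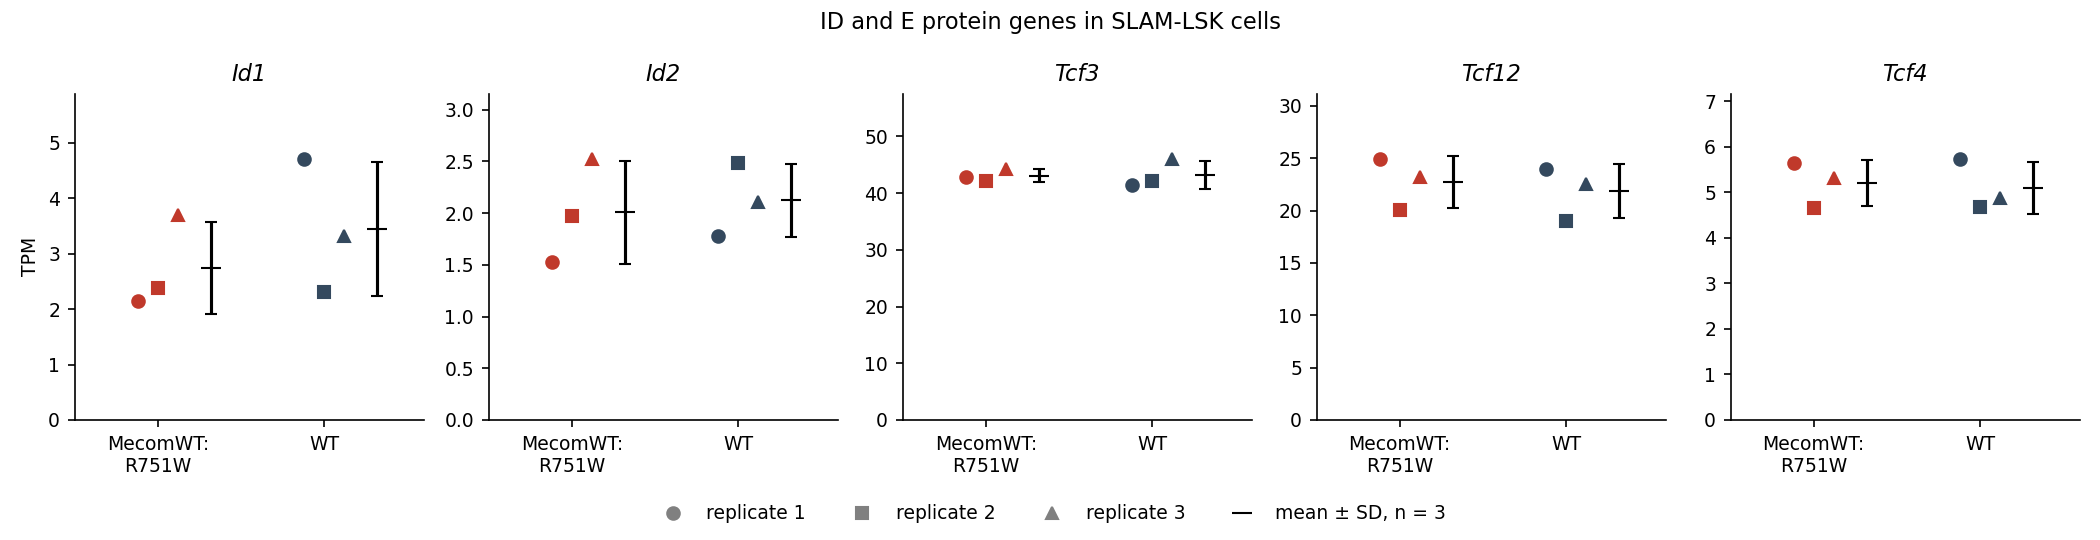
TPM of each member (y axis, from 0, own scale per panel) in the 3 MecomWT:R751W and 3 WT libraries, with the mean ± SD to the right of the points. The groups overlap in all 5 panels, and Id1 and Id2 are more scattered for their level than Tcf3.

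Id1 encodes an ID protein that in blood and endothelium is known to respond to BMP signals and to myeloid growth factors. The gene lies on chromosome 2 from 152736251 to 152737410 (GRCm38). It stood at 2.15, 2.38 and 3.69 TPM in MecomWT:R751W replicates 1, 2 and 3, against 4.71, 2.31 and 3.31 TPM in WT replicates 1, 2 and 3. The highest value was in WT replicate 1 and the lowest in MecomWT:R751W replicate 1, while the other 4 libraries were interleaved. The means were 2.74 ± 0.832 TPM in MecomWT:R751W and 3.44 ± 1.21 TPM in WT cells (SD, n = 3 each). The log2 fold change, on the log2(TPM + 1) scale, was -0.24 (SE 0.24), with a 95% interval of -0.75 to 0.28, and an exact permutation test, two-sided, gave p = 0.6, where 3 libraries against 3 allow a smallest p of 0.1. Without WT replicate 1 the log2 fold change was -0.036.

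The reads behind Id1 were few. MecomWT:R751W libraries had 18, 22 and 36 implied reads, against 41, 22 and 33 in WT libraries. The exact Poisson 95% interval around the lowest, 18 reads, was 10.7 to 28.4, and around the highest, 41 reads, 29.4 to 55.6. These intervals cover counting error only. The coefficient of variation of TPM over the 6 libraries was 32.5%, against 18.7% from counting alone at the mean read number.

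Id2 encodes the ID protein that is known for its need in NK cells and innate lymphoid cells and for binding the retinoblastoma protein. The gene lies on chromosome 12 from 25093799 to 25096092. It was the lowest member, at 1.53, 1.97 and 2.53 TPM in MecomWT:R751W replicates 1, 2 and 3, against 1.78, 2.49 and 2.11 TPM in WT replicates 1, 2 and 3. The range of MecomWT:R751W enclosed that of WT. The means were 2.01 ± 0.501 TPM in MecomWT:R751W and 2.12 ± 0.353 TPM in WT cells, a log2 fold change of -0.062 (SE 0.20, 95% interval -0.50 to 0.38), and the exact permutation p was 0.8. With 14 to 27 reads a library, the coefficient of variation over the 6 libraries was 19.0%, no larger than the 21.7% that counting alone gives.

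Tcf3 encodes E2A, the source of the splice forms E12 and E47, which is known to drive the entry of progenitors into the B cell lineage. In RefSeq its older names include E2A and Tcfe2a, which separates it from the WNT factor that once bore the same symbol. The gene lies on chromosome 10 from 80409541 to 80433976. It stood at 42.9, 42.1 and 44.3 TPM in MecomWT:R751W replicates 1, 2 and 3, against 41.5, 42.1 and 46.1 TPM in WT replicates 1, 2 and 3. No library departed by more than a few TPM from the others, and both the lowest and the highest value were WT. The means were 43.1 ± 1.10 TPM in MecomWT:R751W and 43.2 ± 2.48 TPM in WT cells, a log2 fold change of -0.0034 (SE 0.12). The 95% interval of -0.26 to 0.26 corresponds to a ratio between 0.833 and 1.20 on the TPM + 1 scale. With 1166 to 1491 reads a library, its coefficient of variation over the 6 libraries was 3.98%, the smallest of the 5 members, against 2.77% from counting.

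Tcf12 encodes HEB, the E protein best known from thymocytes, where it pairs with E2A. The gene lies on chromosome 9 from 71844252 to 72111893. It stood at 24.9, 20.0 and 23.2 TPM in MecomWT:R751W replicates 1, 2 and 3, against 24.0, 19.0 and 22.5 TPM in WT replicates 1, 2 and 3. In each genotype replicate 1 was highest and replicate 2 lowest. The means were 22.7 ± 2.50 TPM in MecomWT:R751W and 21.8 ± 2.56 TPM in WT cells, with a log2 fold change of 0.056 (SE 0.15, 95% interval -0.26 to 0.37) and an exact permutation p of 0.6. The annotated span of Tcf12 holds rows of the processed pseudogenes Gm18821, at a mean of 18.5 TPM, and Rpl15-ps2, at 31.1 TPM, on the opposite strand. The strand setting of the counting was not stated, so reads of these genes may be shared.

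Tcf4 encodes E2-2, which is known to specify plasmacytoid dendritic cells. The gene lies on chromosome 18 from 69343429 to 69687967. It stood at 5.65, 4.66 and 5.33 TPM in MecomWT:R751W replicates 1, 2 and 3, against 5.74, 4.67 and 4.87 TPM in WT replicates 1, 2 and 3. As for Tcf12, replicate 1 was highest and replicate 2 lowest in both genotypes. The means were 5.22 ± 0.505 TPM in MecomWT:R751W and 5.09 ± 0.567 TPM in WT cells, a log2 fold change of 0.029 (SE 0.17, 95% interval -0.34 to 0.40).

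**Figure D2:**
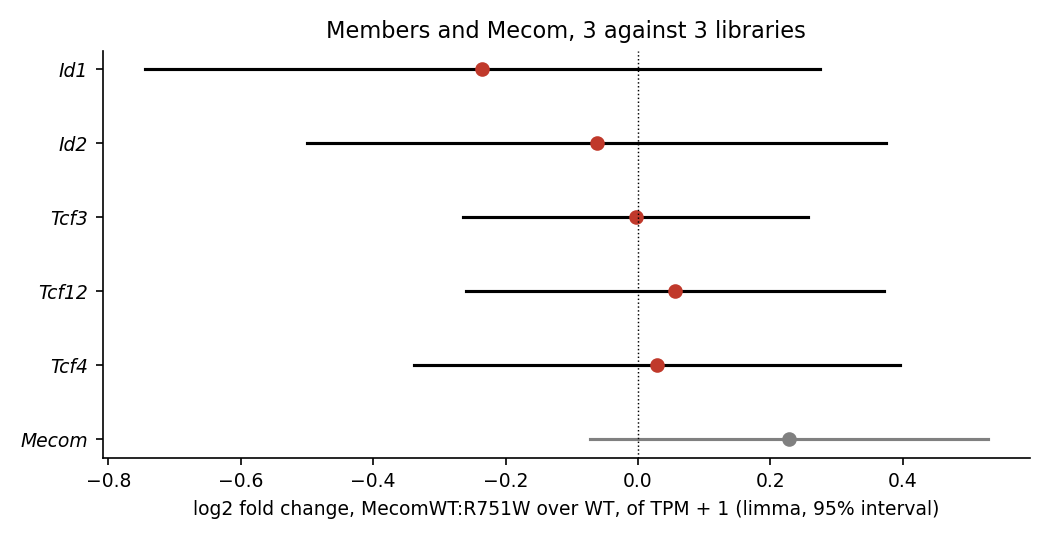
Log2 fold change of each member and of Mecom (x axis, MecomWT:R751W over WT, log2 of TPM + 1), with limma's 95% interval as a line. All 6 intervals include 0, and the widest is that of Id1, -0.75 to 0.28.

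The low TPM of Tcf4 came with a long divisor and with many reads. Tcf4 had 10445 reads over the 6 libraries, more than the 9929 of Tcf12 and the 7800 of Tcf3. The length implied by the deposited TPM was 42462 bases for Tcf4, which is 4.95 times its longest GENCODE M21 transcript of 8577 bases, and longer than the 27382 bases that all its annotated exons cover together. For Tcf12 the implied length was 9331 bases, 1.48 times the longest transcript, for Tcf3 3770 bases, 1.28 times, for Id1 1160 bases, equal to it, and for Id2 1272 bases, 0.646 times. Where along the gene the reads of Tcf4 lie was not analysed here. Some may lie outside its longest transcript, and its reads per kilobase of that transcript may then be too high. Its level against the other E proteins thus depends on which length is used. The ratio of its TPM between libraries does not, since the gene is divided by 1 length in all of them. Its log2 fold change does in part, through the pseudocount, and was 0.035 with a pseudocount of 0.1 TPM and 0.018 with 5 TPM.

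With reads divided by the longest transcript in place of the implied length, Tcf4 stood at 184 to 222 reads per kilobase, close to Tcf12 at 231 to 289, with Tcf3 highest at 395 to 505. Id1 stood at 15.5 to 35.3 and Id2 at 7.11 to 13.7 reads per kilobase. The order of the 5 genes by mean was the same on both scales. On the TPM scale the ranges of Tcf3 and Tcf12 over the 6 libraries were apart, as were those of Tcf12 and Tcf4. The ranges of Tcf4 and Id1 overlapped, although Tcf4 was higher in 6 of 6 libraries, and those of Id1 and Id2 overlapped, with Id1 higher in 5 of 6.

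In RNA, the balance of Id1 and Id2 against Tcf3, Tcf4 and Tcf12 was far on the side of the E protein genes in all 6 libraries. Protein levels were not read here, and Id3 and Id4 are not in the sum. Summed ID TPM was 3.68, 4.35 and 6.22 in MecomWT:R751W replicates 1, 2 and 3, against 6.49, 4.80 and 5.42 in WT replicates 1, 2 and 3. Summed E protein TPM was 73.5, 66.8 and 72.8 in MecomWT:R751W libraries, against 71.2, 65.7 and 73.4 in WT libraries. The E protein sum thus varied by 1.12 times between its lowest and highest library and the ID sum by 1.77 times, so the ratio moved mainly with the ID genes.

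The ratio of E protein to ID TPM was 20.0, 15.3 and 11.7 in MecomWT:R751W replicates 1, 2 and 3, against 11.0, 13.7 and 13.6 in WT replicates 1, 2 and 3. The range of MecomWT:R751W enclosed all but the lowest WT library, so the groups overlapped. As log2 of ID over E protein TPM, the balance was -3.94 ± 0.386 in MecomWT:R751W and -3.66 ± 0.181 in WT cells (SD, n = 3 each), a difference of -0.27 that is smaller than the SD within MecomWT:R751W. Without MecomWT:R751W replicate 1, the library with the fewest ID reads, the difference was -0.080, without WT replicate 1 it was -0.17, and without MecomWT:R751W replicate 3 it was -0.47. No p is given, since the sum is a score over chosen members. The size of the ratio depends on the scale, at 11.0 to 20.0 in TPM, 20.0 to 38.2 in reads per kilobase of the longest transcript and 80.7 to 143 in reads.

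**Figure D3:**
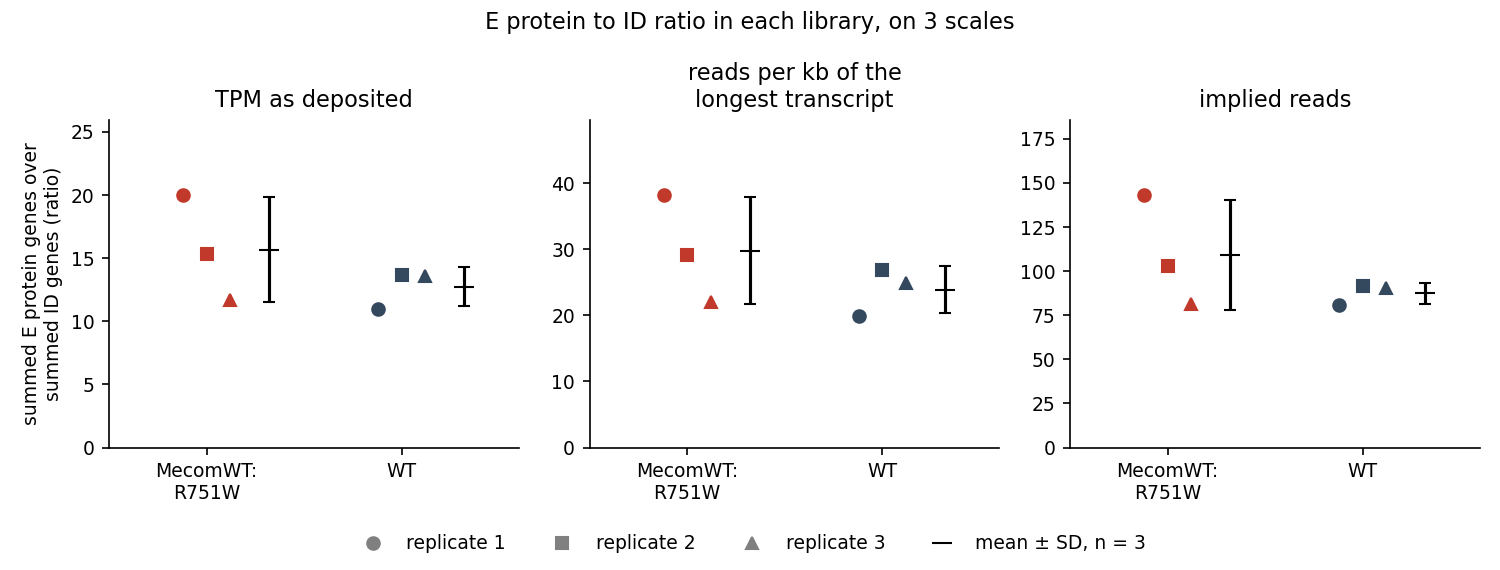
Ratio of summed E protein genes to summed ID genes (y axis, from 0) per library, in TPM, in reads per kilobase of the longest transcript and in reads, with mean ± SD to the right of the points. The groups overlap on each scale, and MecomWT:R751W replicate 1 is highest on all 3.

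Within the E proteins, Tcf3 supplied most of the summed TPM, and its share differed more between replicate numbers than between genotypes. It was 58.4%, 63.0% and 60.8% in MecomWT:R751W replicates 1, 2 and 3, against 58.3%, 64.0% and 62.7% in WT replicates 1, 2 and 3. Tcf12 supplied 33.9%, 30.0% and 31.9% in MecomWT:R751W, against 33.7%, 28.9% and 30.7% in WT. Tcf4 supplied 6.63% to 8.06% over all 6 libraries in TPM, but 20.7% to 24.3% in reads per kilobase of the longest transcript and 35.0% to 39.1% of the reads. The share of TPM taken by protein-coding genes was also alike by replicate number, at 29.7%, 26.0% and 28.9% in MecomWT:R751W replicates 1, 2 and 3, against 30.1%, 25.9% and 28.9% in WT replicates 1, 2 and 3. Its part in the shift of Tcf3 against Tcf12 was not tested.

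**Figure D4:**
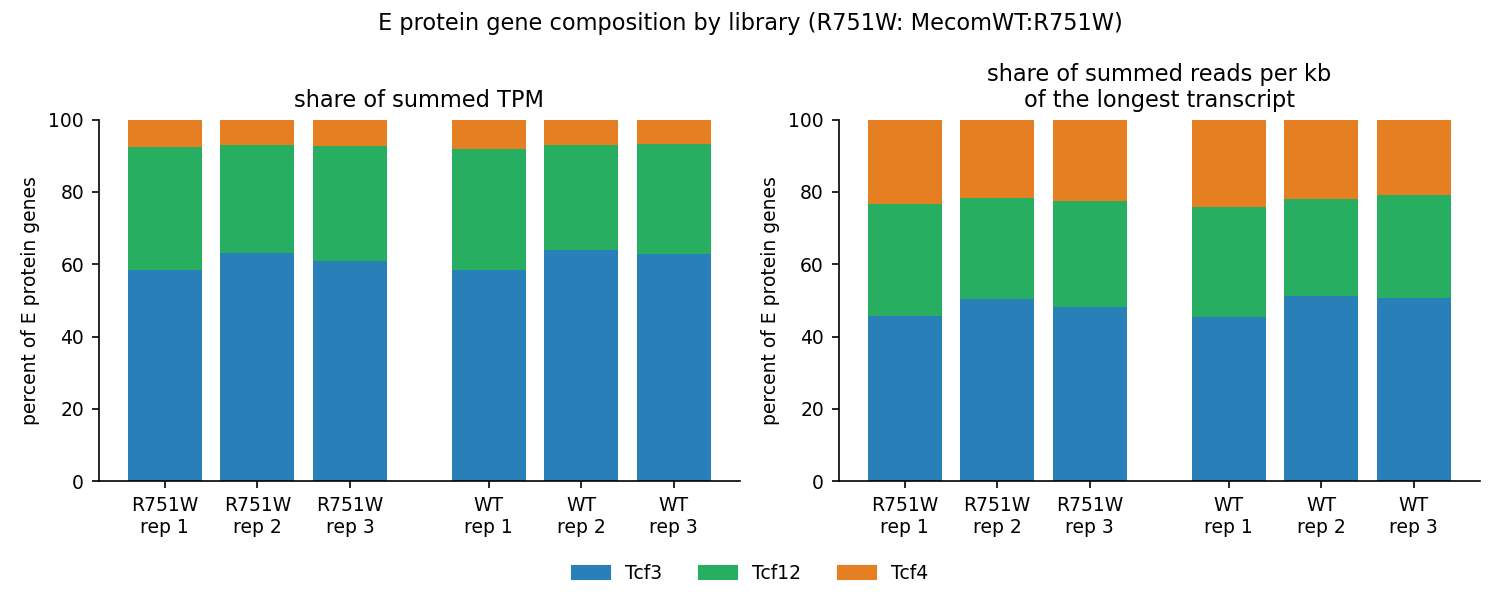
Percent of the E protein sum supplied by Tcf3, Tcf12 and Tcf4 (y axis, stacked bars) in each library, in TPM on the left and in reads per kilobase of the longest transcript on the right. Tcf3 supplies 58.3% to 64.0% in TPM, and the share of Tcf4 grows on the right.

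Tcf4 and Tcf12 followed each other across the 6 libraries, with a Pearson r of 0.91 of log2(TPM + 1) and a Spearman rho of 0.89. After each library was scaled to a common protein-coding total, their r was 0.51. On that scale the 10 pairs ranged from -0.78 (Id2 and Tcf12) to 0.77 (Id2 and Tcf3). Id1 and Id2 had an r of 0.10. These values describe 6 libraries from 2 genotypes, were computed for all 10 pairs of members and carry no test. Among 6064 protein-coding genes averaging 10 TPM or more, those most like Id1 were Rbfa (r = 0.99), Pinx1 (0.99) and Ezh1 (0.99), and those most like Id2 were Mipol1 (0.93), Ciao2b (0.91) and Kat14 (0.87), each the highest of 6064 values over 6 libraries. No other measure ties these genes to Id1 or Id2 here.

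None of the partners with which E proteins act in stem cells passed the test, which called 0.0% of all genes. The same share of all genes stands beside each count of 0 called below. Of 24 tissue-restricted bHLH genes, 4 were tested, 1 above 0 and 3 below, with 0 called and a median log2 fold change of -0.11, where all genes tested had a median of -0.0037. Tal1, a stem cell factor that binds DNA with E2A or HEB, stood at 34.1, 31.4 and 37.1 TPM in MecomWT:R751W libraries, against 35.6, 31.2 and 39.2 TPM in WT libraries. Its close relative Lyl1 stood at 26.3, 26.5 and 34.2 TPM in MecomWT:R751W, against 31.7, 30.5 and 35.8 TPM in WT, a log2 fold change of -0.17 (SE 0.14) that ranged from -0.29 to -0.11 with single libraries left out. Both groups of values overlapped. Each of these 2 genes alone was thus read at a level between those of Tcf12 and Tcf3, and far above the ID genes.

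The LDB1 complex, in which TAL1 and an E protein are bridged to a GATA factor by LMO2, had 10 tested members, 4 above 0 and 6 below, with 0 called and a median of -0.0085. The members of smallest p were Gata3 at 0.20 (SE 0.17), Gata1 at 0.19 (SE 0.18) and Lmo1 at 0.18 (SE 0.26) on the log2 scale. Each moved with single libraries, Gata3 to 0.068 without WT replicate 2, Gata1 to 0.086 without MecomWT:R751W replicate 1 and 0.36 without MecomWT:R751W replicate 2, and Lmo1 to -0.14 without MecomWT:R751W replicate 3. Coregulators of E proteins, such as the acetyltransferase p300 and the ETO family, had 11 tested members, 5 above 0 and 6 below, with 0 called and a median of -0.032. Hdac1, a histone deacetylase, was the only gene among them whose groups did not overlap, at 10.6, 9.26 and 9.44 TPM in MecomWT:R751W, against 12.4, 11.8 and 11.4 TPM in WT (log2 fold change -0.25, SE 0.15, adjusted p = 0.945 by limma). That is 1 of 11, near the 9.19% of all genes tested. Cbfa2t3, an ETO family corepressor, stood at -0.23 (SE 0.15), and at -0.080 without MecomWT:R751W replicate 2.

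Proteins outside the bHLH family that ID proteins bind, the retinoblastoma family and ETS factors, had 8 tested members, 4 above 0 and 4 below, with 0 called and a median of 0.030. Ets1, a lymphoid ETS factor, stood at 0.26 (SE 0.18) and Rbl1, which encodes p107, at 0.13 (SE 0.12). Elk3, another ETS factor, stood at -0.16 (SE 0.15), and at -0.037 without MecomWT:R751W replicate 2. Genes that set the lifetime of ID proteins had 5 tested members, 4 above 0 and 1 below, with 0 called and a median of 0.090. Fzr1, the APC/C activator that directs ID proteins to breakdown, stood at 29.0, 24.4 and 26.9 TPM in MecomWT:R751W, against 19.2, 22.8 and 24.7 TPM in WT, a log2 fold change of 0.26 (SE 0.14, adjusted p = 0.930 by limma), or 0.16 without WT replicate 1. The lowest MecomWT:R751W library lay just under the highest WT library. Usp1, the enzyme that removes ubiquitin from ID proteins, stood at 62.7 ± 3.11 TPM in MecomWT:R751W and 61.1 ± 8.48 TPM in WT cells.

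Signals known to induce ID genes were read next. Of 30 genes of the BMP and TGF-beta pathways, 21 were tested, 5 above 0 and 16 below, with 0 called over all genes and a median of -0.092. Skil, a corepressor of SMAD proteins known as SnoN, stood at 23.8, 15.3 and 9.89 TPM in MecomWT:R751W, against 52.3, 21.7 and 20.4 TPM in WT, with overlapping groups (log2 fold change -0.85, SE 0.33, adjusted p = 0.735 by limma). Without WT replicate 1 its log2 fold change was -0.43, and without MecomWT:R751W replicate 3 it was -0.56. Tgfb1, the ligand TGF-beta 1, stood at 0.23 (SE 0.14), and at 0.12 without WT replicate 2. Ski, the relative of Skil, stood at -0.25 (SE 0.14).

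Immediate early genes, which like ID genes respond within minutes to growth factors, stood below 0 in all 25 tested members, with a median of -0.60 and 0 called over all genes. Their mean log2 level was 5.16, 4.53 and 4.40 in MecomWT:R751W replicates 1, 2 and 3, against 5.69, 5.22 and 4.86 in WT replicates 1, 2 and 3. The groups overlapped, although WT was higher within each replicate number, which the labels do not call a pair. Of the 25 genes, 4 lay wholly below WT and 0 wholly above. Among all genes tested, 9.19% had groups apart in either direction and 782 of the 16655 lay wholly below. Id1 was highest in WT replicate 1, which had the highest mean immediate early level. It was next highest in MecomWT:R751W replicate 3, which had the lowest immediate early level of the 6. Any tie between this level and Id1 was not tested. Egr1, a zinc finger factor that is known to act on Id3 in lymphocytes, stood at 151, 92.3 and 61.2 TPM in MecomWT:R751W, against 273, 229 and 130 TPM in WT.

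Genes known to respond to E proteins in lymphoid or stem cells gave both directions. Of 31 such genes 14 were tested, 9 above 0 and 5 below, with 0 called over all genes and a median of 0.066. Flt3, the cytokine receptor of early lymphoid priming, stood at 24.0, 20.4 and 24.1 TPM in MecomWT:R751W, against 11.7, 9.30 and 13.0 TPM in WT. Cxcr4, the receptor that holds stem cells in the niche, stood at 33.5, 23.0 and 33.5 TPM in MecomWT:R751W, against 14.6, 17.8 and 19.0 TPM in WT. Gfi1, a repressor of stem cell proliferation, stood at 6.16, 6.14 and 5.32 TPM in MecomWT:R751W, against 2.40, 3.06 and 3.56 TPM in WT. In these 3 genes all MecomWT:R751W libraries lay above all WT libraries, and no other of the 14 had groups apart. Of all genes tested, 9.19% had groups apart in either direction and 749 of the 16655 lay wholly above. The list was chosen with earlier results of these data known, so these counts are a description only. Whether E protein activity differed was not tested.

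The call on these genes depended on the rows fitted and on the method. Over all genes the adjusted p by limma was 0.142 for Flt3, 0.269 for Cxcr4 and 0.279 for Gfi1. Over the 11394 protein-coding genes alone, limma called 1.16% of genes, among them Flt3 (adjusted p = 9.63e-06), Cxcr4 (0.000592) and Gfi1 (0.00685), and none of the 5 ID and E protein genes (smallest adjusted p = 1.0). With a robust variance estimate in that fit, limma called 1.41% of genes, these 3 among them. That fit also called Socs3, a feedback inhibitor of cytokine signals, in the other direction (log2 fold change -0.69, adjusted p = 0.0297, groups overlapping). The SE of Socs3 was 0.30 in the fit over all genes. Limma-voom on the implied reads of all 16655 genes gave an adjusted p of 0.000126 for Flt3, 0.0319 for Cxcr4 and 0.0826 for Gfi1. The protein-coding fit without the robust estimate leaned on a prior of 102 degrees of freedom and so used little of each gene's own spread. In the robust fit the median prior was infinite, so most genes there took the shared estimate of spread in place of their own. Markers of T and NK cells, summed over the 5 of 14 analysed here, stood at 17.4 to 20.4 TPM in MecomWT:R751W libraries and 9.33 to 11.2 TPM in WT libraries. Nkg7, found in the granules of cytotoxic lymphocytes, made up most of that in MecomWT:R751W, at 9.51 to 12.1 TPM, against 3.89 to 4.76 TPM in WT. Of the other tested T and NK markers, Cd4 stood at 0.78, Lck at 0.090 and Cd247 at -0.30 on the log2 fold change scale. Limma called Nkg7, and Cd4 with overlapping groups, over protein-coding genes, with and without the robust estimate. Neither was called over all genes or with voom. Of the 11 erythroid markers tested, 9 were above 0 and 2, Car2 and Tfrc, below. In 4 of them (Klf1, Car1, Ermap and Rhd, log2 fold changes 0.88 to 1.35) MecomWT:R751W libraries lay wholly above WT. Of all genes tested, 9.19% had groups apart in either direction. These 4 genes were low, with WT means of 0.690 to 1.81 TPM. The summed erythroid level overlapped, at 328 to 403 TPM in MecomWT:R751W and 332 to 412 TPM in WT libraries. Limma called the 4 genes over protein-coding genes, with and without the robust estimate, but not over all genes or with voom. Emcn, 1 of 2 endothelial markers tested, was also wholly above WT, at 19.3 to 25.1 TPM in MecomWT:R751W, against 13.6 to 13.7 TPM in WT. It was called by the same fits as the 4 erythroid genes. Pecam1, the other endothelial marker, went the other way, at -0.13 (SE 0.17) on the log2 fold change scale, with overlapping groups. The part of these markers in the result was not tested.

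Hes1, a bHLH repressor best known as a target of Notch and listed also among E protein targets, had the most negative value of the genes listed. It stood at 6.66, 4.14 and 2.20 TPM in MecomWT:R751W, against 35.4, 12.8 and 5.86 TPM in WT. The groups overlapped, and WT replicate 1 stood far above the others. Its log2 fold change was -1.59 (SE 0.47), and -0.96 without WT replicate 1. It was called by limma over protein-coding genes (adjusted p = 9.9e-07), a fit that leaned on a prior of 102 degrees of freedom and so used little of each gene's own spread, but not over all genes (0.519), not with the robust estimate (0.860) and not with voom (0.251). Skil (adjusted p = 0.00175) likewise was called by the protein-coding fit and by none of the other 3. Of the other tested HES, HEY and BHLHE repressors, Bhlhe40 stood at -0.37 (SE 0.25), and at -0.17 without WT replicate 1, while Hes5 stood at -0.13 (SE 0.22), and at 0.044 without WT replicate 1. The immediate early genes were called lower in 10 of 25 by the protein-coding fit. That fit called 1.16% of the 11394 protein-coding genes in either direction, and 92 of them lower. With the robust estimate, which called 1.41% of protein-coding genes in either direction, 6 were called lower. With voom, which called 0.3% of all genes tested in either direction, only 1, Dusp2, was called lower.

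**Figure D5:**
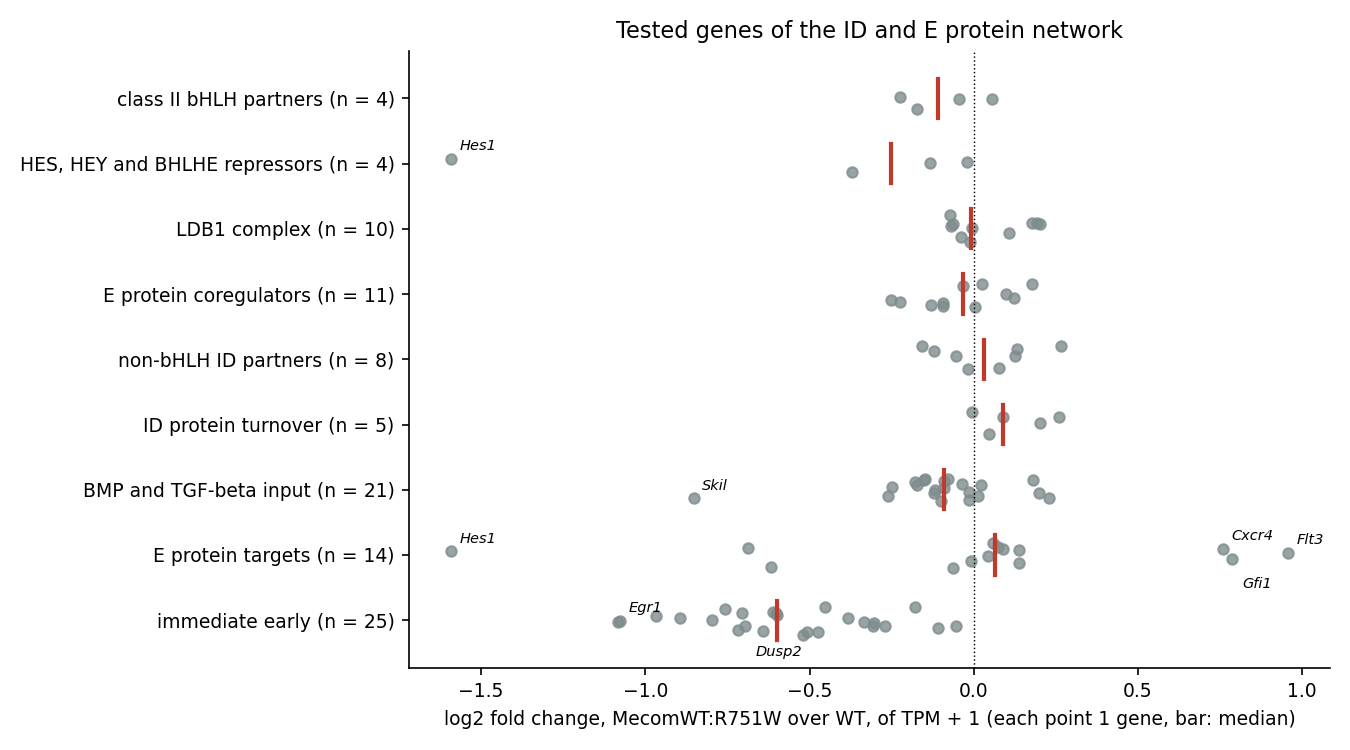
Log2 fold change of each tested gene (x axis, MecomWT:R751W over WT, log2 of TPM + 1) in 9 gene lists around the ID and E proteins, with the median of each list as a bar. All 25 immediate early genes lie left of 0, while Flt3, Cxcr4 and Gfi1 stand apart to the right and Hes1 to the left.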

How the data were processed

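The authors deposited 1 table of TPM with a column per library. The submitters' processing notes name DESeq2 and the build mm10 and give neither a role. The aligner, counter, strand setting, annotation and which of the listed library kits was used are not given in the sources read for this work. Whole reads were implied from the ratios of TPM between libraries within each gene, and came out whole to within 0.001 reads for 100.0% of genes. A simulated table of 18464 genes returned 98.2% of them exactly.

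The test was limma 3.58.1 in R 4.3.3 with a mean-variance trend on log2(TPM + 1), where the pseudocount of 1 understates changes of low genes. Descriptions used pandas 2.3.3, numpy 2.4.6 and scipy 1.17.1 under Python 3.11.15, and plots matplotlib 3.10.9. Members and the 18 gene lists were chosen with earlier results of these data known. Named were the members, Mecom, up to 3 genes of smallest p per list and the genes most like each ID gene. Tal1, Usp1, Socs3, Lck and Car1 were chosen after their values were seen. Alternatives were other pseudocounts, filters, scalings, row sets and weights, voom, a replicate block and each library left out.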

Additional observations from a re-analysis of the deposited data

How the results depend on the processing

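None of the 5 members passed the threshold in any alternative tried. The sign of Id1 did not turn in any of its 17 alternatives, while those of the other 4 turned in at least 2. With each library left out in turn, Id1 ranged from -0.43 to -0.036, Id2 from -0.18 to 0.057, Tcf3 from -0.031 to 0.042, Tcf4 from -0.022 to 0.10 and Tcf12 from -0.037 to 0.14. Tcf3 was 0.0092 with libraries centred on their median and 0.0041 with voom.

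Counts of called genes, 0 higher and 0 lower as reported, were 1 and 1 with the minimum mean raised to 5 TPM (Id1 and Id2 then untested), 40 and 92 over protein-coding rows, 52 and 109 there with the robust estimate (chosen after seeing the data), 24 and 26 with voom, and 0 and 1 with weighted libraries. With each library left out they ranged from 0 to 6 higher and from 0 to 9 lower. Pseudocounts of 0.1 or 5, no filter, rescaling to the protein-coding total, centring, a fit with no trend and the replicate block left both at 0.

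The balance difference of -0.27 ranged from -0.47 to -0.080 with a library left out, and its largest other shift was to -0.12 without Id1. Same-numbered libraries deviated together with correlations of 0.1403, 0.0893 and 0.0833, not all above 0.1, and each library correlated best with its own number, which hints at pairing that the labels do not state. With the replicate block the balance difference was -0.27, with an SD of the 3 differences of 0.547.

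Among other named genes, signs turned with a library left out for Tcf15 (-0.014 to 0.097), Hes5 (-0.30 to 0.044), Lmo1 (-0.14 to 0.34), Wdr48 (-0.035 to 0.18), Cd79b (-0.060 to 0.21), Pecam1 (-0.25 to 0.019) and Col1a2 (-0.20 to 0.17, and 0.0995 with weighted libraries). Depth limits the ID genes, at 14 to 41 reads a library.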
